A study of Mus musculus with 6 samples.

Results

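Transcripts of 10 regulators of cAMP-driven transcription were followed in cultured hepatic stellate cells of the mouse. These pericytes of the liver sinusoid store vitamin A. The genes were taken by symbol from the deposited exon count table: Creb1, Crem, Crtc1, Crtc2, Crtc3, Nr4a1, Nr4a2, Nr4a3, Sik1 and Ppargc1a. All 10 were found among the 24940 genes of the table. The cells were primary, isolated from wild-type (wt) females of the strain C57BL/6JBomTac. At 2 days in culture, 1 group was given obeticholic acid (OCA) at 10 µM and the other an equal volume of the vehicle, DMSO (1:1000). OCA is a bile acid derivative and an agonist of the nuclear receptor FXR. After 3 h, both groups received 500 nM vasoactive intestinal peptide (VIP) for 3 h more. The groups are called DMSO+VIP and OCA+VIP, with 3 libraries each. VIP is a neuropeptide that signals through Gs-coupled receptors. It was present in every library, so the change caused by VIP itself was not analysed here. Whether libraries within a group stem from separate mice or dishes is not labelled, so p-values reflect only the spread between these libraries, which may be technical.

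When a hormone or neuropeptide raises cAMP, protein kinase A phosphorylates CREB, a transcription factor that binds the cAMP response element (CRE). Protein kinase A also silences the salt-inducible kinases (SIKs), which otherwise hold the CRTC coactivators in the cytoplasm. Freed CRTCs enter the nucleus and join CREB on its target genes. Several of those targets are among the genes followed here. Crem gives rise to the inducible repressor ICER and Sik1 encodes a salt-inducible kinase, so both can feed back on the pathway. Nr4a1, Nr4a2 and Nr4a3 encode orphan nuclear receptors made as immediate early genes. Ppargc1a encodes PGC-1α, a coactivator of mitochondrial and fasting genes and a classical CREB target in hepatocytes.

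The promoters of the NR4A genes are shown first because these 3 paralogs are compared with each other below. They also carry CRE half-sites in the 250 bases before a RefSeq start site. RefSeq start sites (build GRCm38.p6, the assembly of mm10) could be matched for 7 of the 10 genes; Crem, Crtc2 and Sik1 were unmatched. Each line gives the 250 bases before the start site, 5′ to 3′ on the strand of the gene, with the CRE half-site TGACG and its reverse complement CGTCA in capitals.
Nr4a1, chr15:101266596-101266845, plus strand: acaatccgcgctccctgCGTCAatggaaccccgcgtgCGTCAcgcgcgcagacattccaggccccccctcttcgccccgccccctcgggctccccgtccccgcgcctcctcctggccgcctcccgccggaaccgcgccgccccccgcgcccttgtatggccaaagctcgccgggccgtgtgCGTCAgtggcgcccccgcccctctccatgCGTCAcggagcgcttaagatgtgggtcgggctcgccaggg
Nr4a2, chr2:57124004-57124253, minus strand: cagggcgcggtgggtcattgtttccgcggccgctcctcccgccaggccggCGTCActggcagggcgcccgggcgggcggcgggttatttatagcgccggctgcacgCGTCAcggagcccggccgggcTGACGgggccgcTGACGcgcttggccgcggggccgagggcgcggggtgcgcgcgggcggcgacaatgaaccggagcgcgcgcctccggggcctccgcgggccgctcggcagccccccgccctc
Nr4a3, chr4:48045055-48045304, plus strand: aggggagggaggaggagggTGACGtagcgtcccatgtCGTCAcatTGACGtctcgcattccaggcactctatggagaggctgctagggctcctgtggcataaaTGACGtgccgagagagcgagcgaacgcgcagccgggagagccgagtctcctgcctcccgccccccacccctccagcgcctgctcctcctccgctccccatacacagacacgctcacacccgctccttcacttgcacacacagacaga
Ppargc1a, chr5:51567726-51567975, minus strand: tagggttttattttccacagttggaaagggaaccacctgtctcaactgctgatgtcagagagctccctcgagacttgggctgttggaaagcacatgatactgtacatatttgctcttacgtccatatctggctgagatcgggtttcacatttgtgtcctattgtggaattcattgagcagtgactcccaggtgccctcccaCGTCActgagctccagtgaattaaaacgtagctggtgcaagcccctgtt
Each NR4A window held 4 half-sites. In Nr4a1, which encodes NUR77, all 4 were CGTCA, and the nearest ended 36 bases before the start site. The Nr4a2 window (NURR1) had 2 of each orientation, between 200 and 107 bases upstream. In Nr4a3 (NOR-1), 3 of the 4 lay between 231 and 201 bases upstream. The Ppargc1a window held 1, from 49 to 45 bases upstream, and those of Creb1, Crtc1 and Crtc3 held 0. The full palindrome TGACGTCA, which would contain both half-sites overlapping, was in none of the 7 windows. Over 32851 RefSeq windows of the same length, 17.8% held at least 1 half-site on either strand, 0.137% held 4 or more, and 1.55% held the palindrome. These 32851 windows were not matched for base composition. The sequences shown were picked for their half-sites, so the shares are a description and no test. A match of letters does not show that a factor bound there. For Nr4a2 and Ppargc1a the RefSeq start site lies 8965 and 13804 bases from the 5′ end of the transcript that was counted, so these windows belong to another start of the gene.

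Counts summed to 2.84e+06 to 4.57e+06 in the DMSO+VIP libraries and to 4.53e+06 to 9.95e+06 in the OCA+VIP libraries. Low counts came in steps: of the counts above 0 and up to 30, 65.4% (OCA+VIP library 2, also the deepest) to 87.5% lay within 0.5 of a multiple of 3, where an even spread gives 50%. Of the same counts, 37.5% (the same library) to 58.2% lay within 0.5 of a multiple of 6, where an even spread gives 25%. All 16 stellate markers on the list averaged at least 1 CPM (the count scaled to a column total of 1e+06), and summed to 1830 to 2011 CPM with DMSO+VIP and 1651 to 1742 with OCA+VIP. Hepatocyte markers summed to 183 to 201 CPM and 318 to 499 CPM, with Tat and Cps1 at 0 in every library. Of 14 tested hepatocyte markers, 9 rose and 1 fell (71.4% called), and their median difference on the log2 scale was 2.47. Of the 16 stellate markers, 5 rose and 3 fell (50% called), with a median difference of 0.11. Over all tested genes, 11.8% were called. The sums of 14 macrophage markers were 15.3 to 48.1 and 32.3 to 45.8 CPM, with Ptprc, Vsig4 and the 3 C1q genes at 0. The 12 endothelial markers summed to 465 to 526 and 423 to 453 CPM, mostly from Eng, with Lyve1 and Erg at 0. Sums were 6.16 to 14.9 and 17.3 to 21.0 CPM for 7 cholangiocyte markers, with Krt7 and Cftr among those at 0. For 9 lymphocyte markers they were 0 to 1.31 and 5.88 to 10.4 CPM, with 7 of the 9, Cd3e among them, at 0. A mean of at least 1 CPM over the 6 libraries was reached by 14 of 17 hepatocyte and 5 of 12 endothelial markers. The same held for 4 of 14 macrophage, 3 of 7 cholangiocyte and 1 of 9 lymphocyte markers. The part of these cells in the results below was not tested.

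With OCA before VIP, RNA of Crem, Sik1, Nr4a2 and Nr4a3 fell, Nr4a1 did not pass the test, and no member was called higher. Of 9 members with enough counts to test, Crem, Nr4a2, Nr4a3 and Sik1 fell, 0 rose, and Creb1, Crtc1, Crtc2, Crtc3 and Nr4a1 did not pass (adjusted p under 0.05 by the quasi-likelihood test of edgeR, with the Benjamini-Hochberg method). Over all 11286 tested genes, 11.8% passed in either direction, 5.72% higher and 6.04% lower. Crem, at 2.05-fold lower, was the member with the largest difference, and the other 3 were 1.32-fold to 1.39-fold lower. Median log2 fold change of OCA+VIP over DMSO+VIP was -0.29 over the 9 members and 0.00 over all tested genes. Of these 4 calls, Crem alone held when any of the 6 libraries was left out. In bulk RNA, fewer expressing cells and less RNA per cell cannot be told apart.

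**Figure D1:**
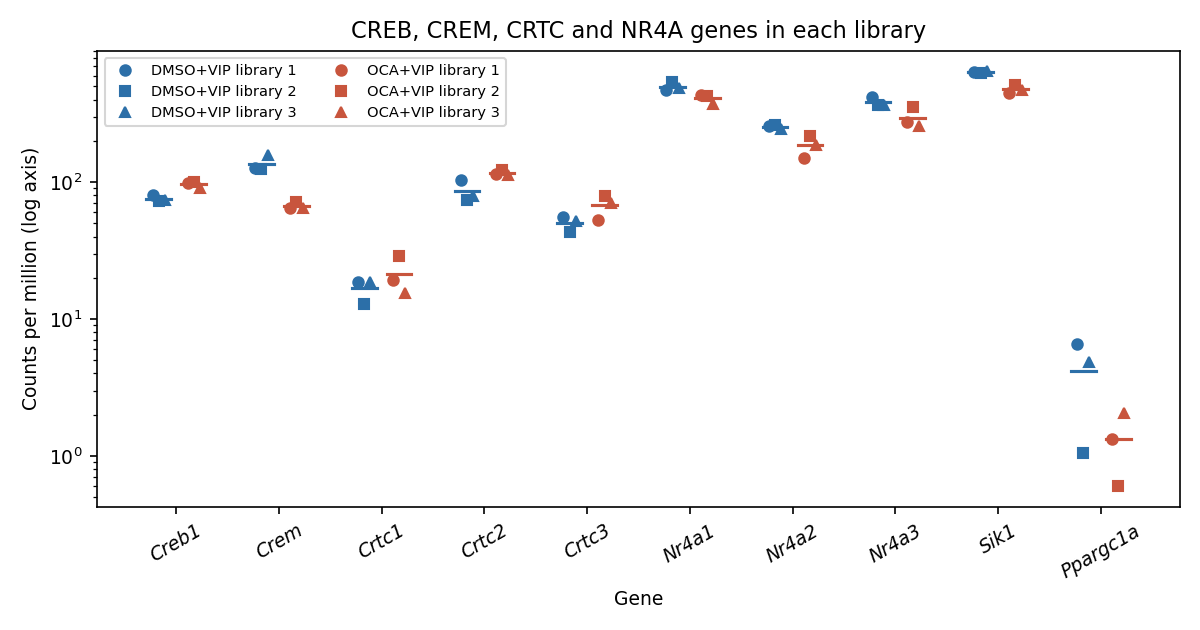
CPM of the 10 genes (log axis) in each library, blue for DMSO+VIP and red for OCA+VIP, with a line at the mean of 3 libraries. The groups do not overlap for 7 genes: Crem, Nr4a1, Nr4a2, Nr4a3 and Sik1 are lower and Creb1 and Crtc2 higher with OCA+VIP.

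Without regard to the test, the CPM of the groups did not overlap for 7 of the 10 members. For 5 the OCA+VIP libraries were all lower (Crem, Nr4a1, Nr4a2, Nr4a3, Sik1) and for 2 all higher (Creb1, Crtc2). Among all tested genes, 30.6% did not overlap, 13.9% with OCA+VIP lower and 16.8% with OCA+VIP higher.

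Because longer transcripts collect more counts, levels of different genes were set side by side as CPM per kilobase of exon (CPM/kb). With DMSO+VIP the order was Nr4a1 (202 ± 14.0 CPM/kb, SD, n = 3), Sik1 (141 ± 2.01), Nr4a2 (80.3 ± 3.04), Nr4a3 (69.2 ± 5.81), Crem (67.5 ± 9.31), Crtc2 (28.2 ± 5.30), Crtc3 (9.85 ± 1.19), Creb1 (8.97 ± 0.494), Crtc1 (2.96 ± 0.592) and Ppargc1a (0.640 ± 0.434 CPM/kb). Neighbours in this order were separate in all libraries except Nr4a3 with Crem and Crtc3 with Creb1, whose libraries overlapped. The NR4A genes, Sik1 and Crem were thus at the top and the CRTC genes and Creb1 below them. With OCA+VIP, Nr4a1 (166 ± 13.0 CPM/kb) and Sik1 (106 ± 7.32) stayed first and second. Crem (33.2 ± 1.95 CPM/kb) then ranked sixth, behind Crtc2 (38.4 ± 1.84), and the libraries of these neighbours did not overlap. In that group the neighbours that overlapped were Nr4a2 with Nr4a3, and Crtc3 with Creb1.

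Crem encodes activators and repressors of the CREB family. The table counts it over NM_001110854 (chr18:3266354-3281747, mm10, minus strand, 2023 exon bases), annotated there with the alias ICER. Its CPM was 127, 125 and 158 in DMSO+VIP libraries 1 to 3 and 64.7, 71.7 and 65.0 in OCA+VIP libraries 1 to 3. Every OCA+VIP library lay below every DMSO+VIP library. Its log2 fold change was -1.04 (SE 0.14, 95% interval -1.33 to -0.75, edgeR adjusted p = 3e-05). When each library was left out in turn, the log2 fold change of Crem ranged from -1.10 to -0.92, and its edgeR adjusted p reached 0.00102 at most. ICER is made from a promoter inside the gene. The counted transcript starts inside the gene and spans 15.4 kb where the longest GENCODE vM21 model of Crem spans 71.3 kb. The GENCODE model linked to it holds 529 exon bases, fewer than the deposited length. Of those bases, 478 (90.4%) also lie in exons of protein-coding Crem models that start further upstream, of which there are 25. Counted bases outside the linked model were not compared with those upstream models. The count was therefore not assigned to ICER rather than to longer Crem transcripts.

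Creb1, the constitutive activator to which ICER is a rival for CRE sites (chr1:64532804-64604548, plus strand, 8410 exon bases), pointed the other way. Its CPM was 80.2, 72.7 and 73.4 with DMSO+VIP and 99.1, 100.1 and 90.2 with OCA+VIP. The groups did not overlap, yet with a log2 fold change of 0.34 (SE 0.14, 95% interval 0.05 to 0.63) the difference did not pass (edgeR adjusted p = 0.13). The 95% intervals given here are per gene and not adjusted for the number of genes tested. They can therefore exclude 0 where the adjusted p does not pass. DESeq2 called Creb1 higher (adjusted p = 0.048). Within a library, the log2 ratio of Crem to Creb1 counts was 0.66, 0.78 and 1.11 with DMSO+VIP. With OCA+VIP that log2 ratio was -0.61, -0.48 and -0.47. Counts of Crem thus exceeded those of Creb1 in the 3 vehicle libraries and were below them in the 3 OCA+VIP libraries. Raw counts favour the longer Creb1 (8410 exon bases against 2023), so this crossing is not one of levels. In CPM/kb, Crem stayed above Creb1 in every library. The means of Crem and Creb1 were 67.5 and 8.97 CPM/kb with DMSO+VIP and 33.2 and 11.5 CPM/kb with OCA+VIP.

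The CRTC genes encode the coactivators that SIKs restrain. Crtc2 (chr3:90253858-90264125, plus strand), the form best known from hepatic gluconeogenesis, had 104, 74.0 and 78.9 CPM with DMSO+VIP and 114, 123 and 112 CPM with OCA+VIP. DMSO+VIP library 1 came closest to the OCA+VIP libraries, and the groups did not overlap. For Crtc2 the log2 fold change was 0.42 (SE 0.14, 95% interval 0.12 to 0.72), with an edgeR adjusted p of 0.061. It passed with DESeq2 (adjusted p = 0.016), without a filter on low counts (0.0419) and without DMSO+VIP library 1 (0.026). Crtc3 (chr7:80586632-80688877, minus strand) had 55.3, 43.5 and 51.7 CPM with DMSO+VIP and 53.1, 79.5 and 70.1 CPM with OCA+VIP. OCA+VIP library 1 lay within the vehicle range, and the difference in Crtc3 did not pass (log2 fold change 0.41, 95% interval 0.04 to 0.77, edgeR adjusted p = 0.14). Crtc1 (chr8:70382358-70439573, minus strand), which is best known from neurons, was the scarcest of the 3. Its CPM was 18.7, 12.9 and 18.6 with DMSO+VIP and 19.3, 28.7 and 15.5 with OCA+VIP, and the groups overlapped. The log2 fold change of Crtc1 was 0.32 (95% interval -0.32 to 0.95, edgeR adjusted p = 0.56), and 0.08 without OCA+VIP library 2, its highest library. These intervals include differences of Crtc1 in either direction.

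**Figure D2:**
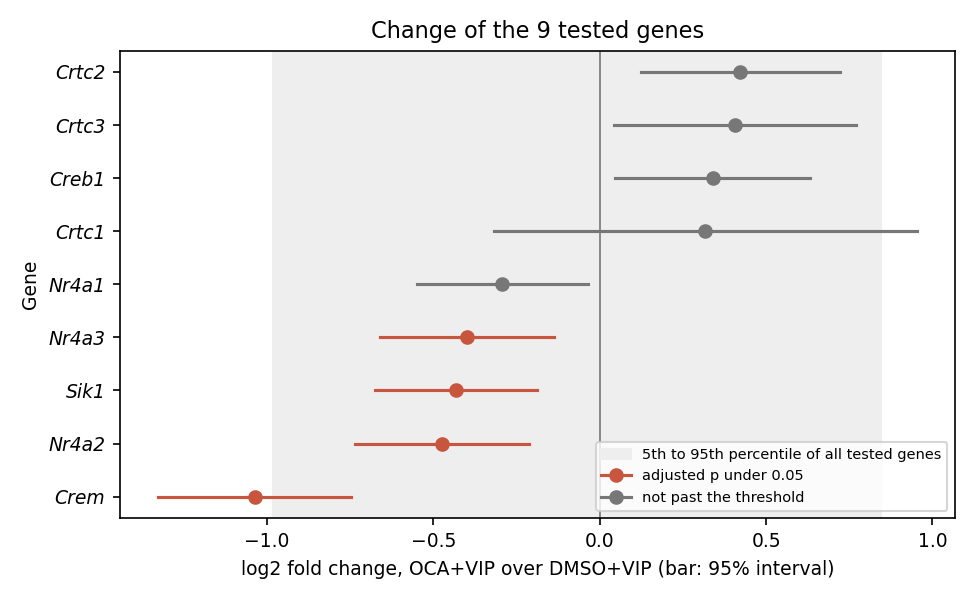
Log2 fold change of OCA+VIP over DMSO+VIP for the 9 tested genes, with 95% intervals from the edgeR fit. These intervals are per gene and not adjusted for the number of genes tested. Red marks an adjusted p under 0.05 and the grey band the 5th to 95th percentile of all tested genes (-0.98 to 0.85). Crem alone lies outside the band. Crem, Sik1 and the NR4A genes lie left of 0, and Creb1 and the CRTC genes right of it.

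Sik1 encodes salt-inducible kinase 1, the member of that kinase family which cAMP induces (chr17:31844248-31855804, minus strand, 4507 exon bases). Its CPM was 640, 626 and 643 with DMSO+VIP and 450, 514 and 468 with OCA+VIP. The vehicle libraries were close together and all above the OCA+VIP libraries. The log2 fold change of Sik1 was -0.43 (SE 0.12, 95% interval -0.67 to -0.19, edgeR adjusted p = 0.018). This call did not hold without DMSO+VIP library 1, 2 or 3 (edgeR adjusted p = 0.0673, 0.0587 and 0.0777) or OCA+VIP library 3 (0.0979), although the log2 fold change stayed between -0.45 and -0.42. Set against the coactivator gene Crtc2 in the same library, the log2 ratio of Sik1 to Crtc2 counts was 2.62, 3.08 and 3.03 with DMSO+VIP and 1.98, 2.07 and 2.06 with OCA+VIP.

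The 3 NR4A receptors are induced within hours by cAMP and many other signals and act without a known conventional ligand. Nr4a2 (chr2:57107226-57115038, minus strand) had 256, 263 and 244 CPM with DMSO+VIP and 150.2, 219 and 187 CPM with OCA+VIP. All OCA+VIP values were lower and more spread than the vehicle values. Nr4a2 had the second largest fall of the members, a log2 fold change of -0.47 (SE 0.13, 95% interval -0.73 to -0.21, edgeR adjusted p = 0.015). The call of Nr4a2 was lost without DMSO+VIP library 1 or 2 (edgeR adjusted p = 0.0554 and 0.0613) or OCA+VIP library 1 or 3 (0.087 and 0.0675).

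Nr4a3 (chr4:48045305-48086446, plus strand, 5559 exon bases) had 422, 366 and 366 CPM with DMSO+VIP and 276, 353 and 257 CPM with OCA+VIP. OCA+VIP library 2 came close to the vehicle libraries without reaching them. The log2 fold change of Nr4a3 was -0.40 (SE 0.13, 95% interval -0.66 to -0.14, edgeR adjusted p = 0.041), and -0.51 without OCA+VIP library 2 (0.00208). Leaving out any other single library ended this call (edgeR adjusted p from 0.0791 to 0.238). Nr4a1 (chr15:101266846-101274794, plus strand, 2467 exon bases) had the highest level of the family. Its CPM was 471, 537 and 484 with DMSO+VIP and 432, 425 and 373 with OCA+VIP, again with no overlap. Its difference did not pass (log2 fold change -0.29, SE 0.12, 95% interval -0.55 to -0.04, edgeR adjusted p = 0.13), while DESeq2 gave an adjusted p of 0.0498.

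Whether the members differed from each other in the size of the change was examined through ratios of counts within a library, which do not depend on library size. Of 9 ratios, chosen after the values were seen, 6 did not overlap between the groups, and 3 libraries against 3 cannot give an exact two-sided permutation p below 0.1 (adjusted over the 9 ratios, 0.15). None of the 3 ratios among the NR4A paralogs separated the groups. The log2 ratio of Nr4a2 to Nr4a1 was -0.97 ± 0.08 with DMSO+VIP and -1.16 ± 0.32 with OCA+VIP (SD, n = 3, exact permutation p = 0.5). Values for Nr4a3 to Nr4a1 were -0.37 ± 0.20 and -0.48 ± 0.20 (exact permutation p = 0.6). A difference between Nr4a1, which did not pass the test, and its paralogs, which did, was thus not shown. The log2 ratio of Crem, the member with the largest fall, to Sik1 was -2.23 ± 0.18 with DMSO+VIP and -2.83 ± 0.03 with OCA+VIP. The ratios of Crem to Nr4a1, Nr4a2 and Nr4a3 were also lower in every OCA+VIP library, with differences of the mean log2 ratio of -0.74, -0.55 and -0.63 (exact permutation p = 0.1 for each). Since Crem was picked for its fall, these ratios describe its size beside the other members and are no independent support.

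**Figure D3:**
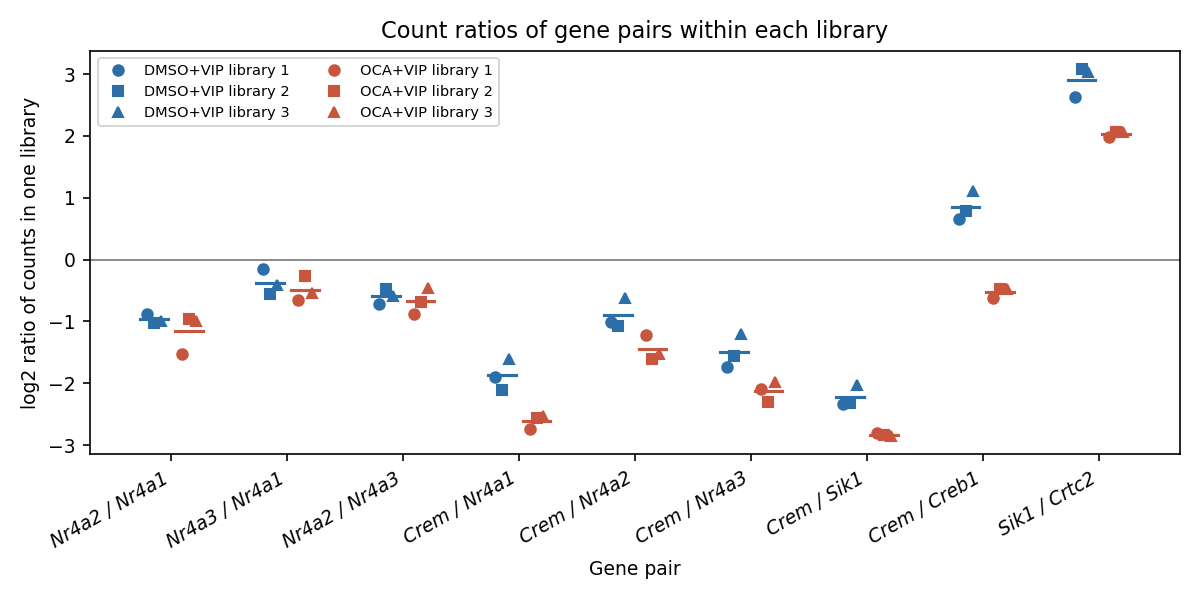
Log2 ratio of the counts of a gene pair within each library, blue for DMSO+VIP and red for OCA+VIP, with lines at the means. The 3 NR4A ratios overlap between the groups; the 5 ratios with Crem on top and the ratio of Sik1 to Crtc2 are lower in all 3 OCA+VIP libraries.

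Ppargc1a (chr5:51454249-51553921, minus strand, counted over NR_027710) was near the limit of these libraries. Its counts were 30, 3 and 18 with DMSO+VIP and 6, 6 and 12 with OCA+VIP, or 6.56, 1.06 and 4.82 against 1.32, 0.603 and 2.07 CPM. The groups overlapped through DMSO+VIP library 2, the shallowest. If counts come in steps of 6, the groups hold the equivalent of 8.5 and 4 fragments. Ppargc1a was not kept by the filter on low counts. Without that filter its log2 fold change was -1.65 (edgeR adjusted p = 0.43), and no difference was detectable with these counts and this spread between libraries.

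The rest of the pathway was read from 6 lists with 107 genes in all, of which 90 were tested, 11 rose and 10 fell. Most calls were in the list of CRE target genes, where 6 rose, 7 fell and 11 did not pass among 24 tested of 29 (54.2% called, against 11.8% of all tested genes). The median log2 fold change was -0.21, and the list was drawn up with earlier results of these data known. The target genes that fell were led by Pde4d, a phosphodiesterase that breaks down cAMP, from 64.4 ± 9.37 to 11.1 ± 5.29 CPM (SD, n = 3, log2 fold change -2.54, edgeR adjusted p = 1.5e-06). Gem, a small GTPase, Cebpb, a bZIP transcription factor, and Ptgs2, which encodes the prostaglandin-forming cyclooxygenase 2, had log2 fold changes of -0.96, -0.85 and -0.70. Pde4b, another cAMP phosphodiesterase, also fell (-0.53), a call that ended when DMSO+VIP library 1 or 2 or OCA+VIP library 1 or 3 was left out (edgeR adjusted p 0.0605 to 0.119). Among the genes that rose, the smallest p was that of Egr1, a zinc finger factor, from 94.0 ± 10.8 to 276 ± 47.0 CPM (log2 fold change 1.55, edgeR adjusted p = 6.6e-07). Arc had a larger fold than Egr1, and Arc, the AP-1 genes Fosb and Fos, and the kinase gene Sgk1 had log2 fold changes of 2.02, 1.24, 0.92 and 1.20. Other immediate early genes of the list, chosen after their values were seen, did not pass: Dusp1 (-0.29), Junb (-0.21), Egr2 (-0.21) and Btg2 (-0.08, log2 fold changes). Whether the members differed from this list was not tested.

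Of 10 tested CREB-related factors and coactivators, 0 rose and 0 fell, where 3 had been filtered out; 11.8% of all tested genes passed. Crebbp, the acetyltransferase CBP that binds phosphorylated CREB, had the smallest p (log2 fold change 0.47, edgeR adjusted p = 0.076). It passed with DESeq2 (adjusted p = 0.0327), without a filter (0.0356) and without OCA+VIP library 3 (0.0227). Ep300 and Creb3l2 had log2 fold changes of 0.22 and -0.49 and did not pass. Among 13 tested kinases that can phosphorylate CREB, 1 fell (7.69%, under the 11.8% of all tested genes). This was Camk1, a calcium/calmodulin-dependent kinase, from 68.8 ± 11.1 to 29.4 ± 8.32 CPM (log2 fold change -1.24, edgeR adjusted p = 0.00038). Akt1 and Prkx did not pass (both 0.27), and Akt1 passed without OCA+VIP library 2 (edgeR adjusted p = 0.0252).

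Of 17 tested genes that control CRTCs and class IIa HDACs (SIK and LKB1 kinases, calcineurin, HDACs and MEF2 factors), 1 rose and 1 fell, which is 11.8%, the share over all tested genes. Rcan1, an inhibitor of calcineurin, rose from 81.5 ± 9.43 to 131 ± 3.16 CPM (log2 fold change 0.67, edgeR adjusted p = 0.0023). Ppp3ca, a catalytic subunit of calcineurin, the phosphatase that activates CRTCs, fell (log2 fold change -0.61, edgeR adjusted p = 0.035). The call of Ppp3ca was lost without any 1 of the libraries except OCA+VIP library 2 (adjusted p from 0.0509 to 0.15). Sik2 and Sik3, the paralogs of Sik1, had log2 fold changes of 0.31 and 0.11 and did not pass (edgeR adjusted p = 0.36 and 0.68). They were chosen after their values were seen.

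In the list of PGC-1 partners and targets, 3 of 14 tested genes rose and 0 fell (21.4% called). Over all tested genes, 11.8% passed in either direction and 5.72% were higher. Pdk4, a kinase that shuts off pyruvate oxidation, went from 16.3 ± 6.70 to 42.0 ± 4.50 CPM (log2 fold change 1.34, edgeR adjusted p = 0.002). Sod2, mitochondrial superoxide dismutase, and Pprc1, a PGC-1-related coactivator, had log2 fold changes of 0.48 and 0.40. The call of Sod2 was lost without DMSO+VIP library 1 or OCA+VIP library 1 or 3 (edgeR adjusted p up to 0.102). That of Pprc1 was lost without any single library other than DMSO+VIP library 1 (edgeR adjusted p up to 0.168). Of 12 tested partners and coregulators of NR4A receptors, 1 rose and 1 fell (16.7%, against 11.8% of all tested genes). The gene that rose was Kdm1a, a histone demethylase (log2 fold change 0.68, edgeR adjusted p = 0.0014). Rxra, a dimer partner of NUR77 and NURR1, did not pass (-0.32, edgeR adjusted p = 0.099), although DESeq2 called it lower (adjusted p = 0.0275).

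**Figure D4:**
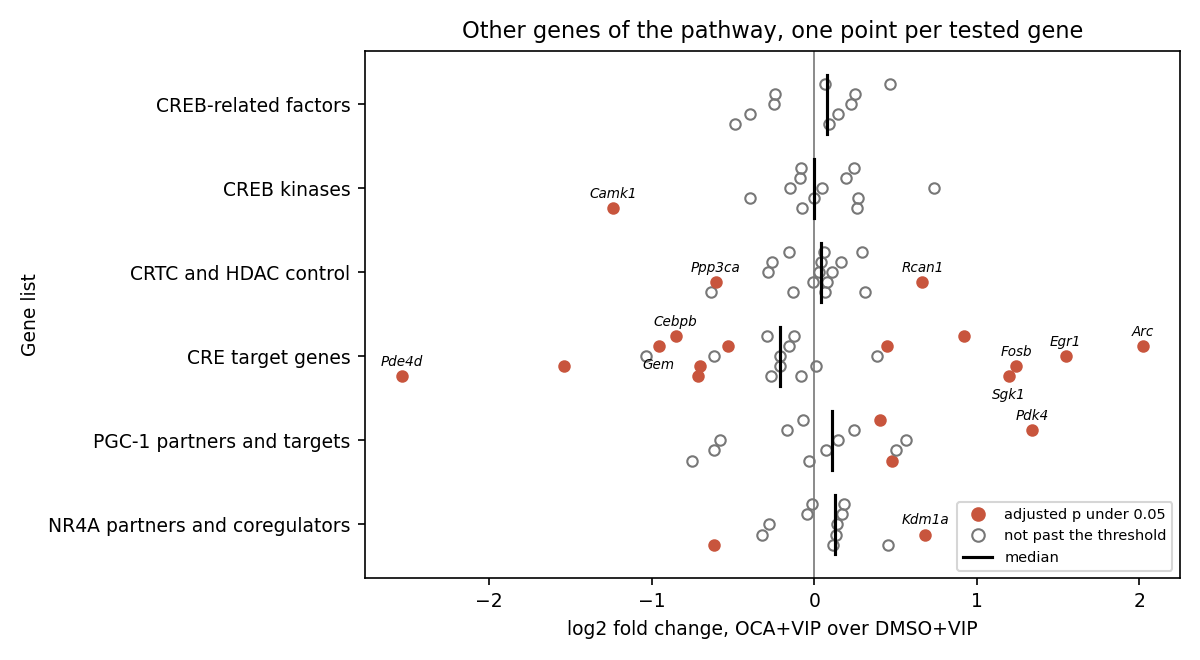
Log2 fold change of OCA+VIP over DMSO+VIP for each tested gene of 6 pathway lists; filled points passed the test and black lines are list medians. The CRE target genes spread widest, from Pde4d at -2.54 to Arc at 2.02, while the 10 CREB-related factors hold no filled point.

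The genes whose log2 CPM followed each called member most closely over the 6 libraries were sought among 8642 protein-coding genes with at least 10 CPM in the mean. For Crem they were Nuak2 (Pearson's r = 0.999), Flot1 (0.993) and Rcn1 (0.993). Those of Nr4a2 were Foxp1 (0.997), Decr1 (0.996) and Ntpcr (0.995), and those of Nr4a3 were Phf2 (0.996), Orai3 (0.990) and Perm1 (0.990). Tiparp (0.999), Lrrc32 (0.996) and Emp3 (0.996) were nearest to Sik1. The 6 points share the group difference and the library depths, and 75 (Nr4a3) to 226 (Sik1) genes reached r = 0.95, so these likenesses are descriptions. No gene was named for more than 1 member.

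**Figure D5:**
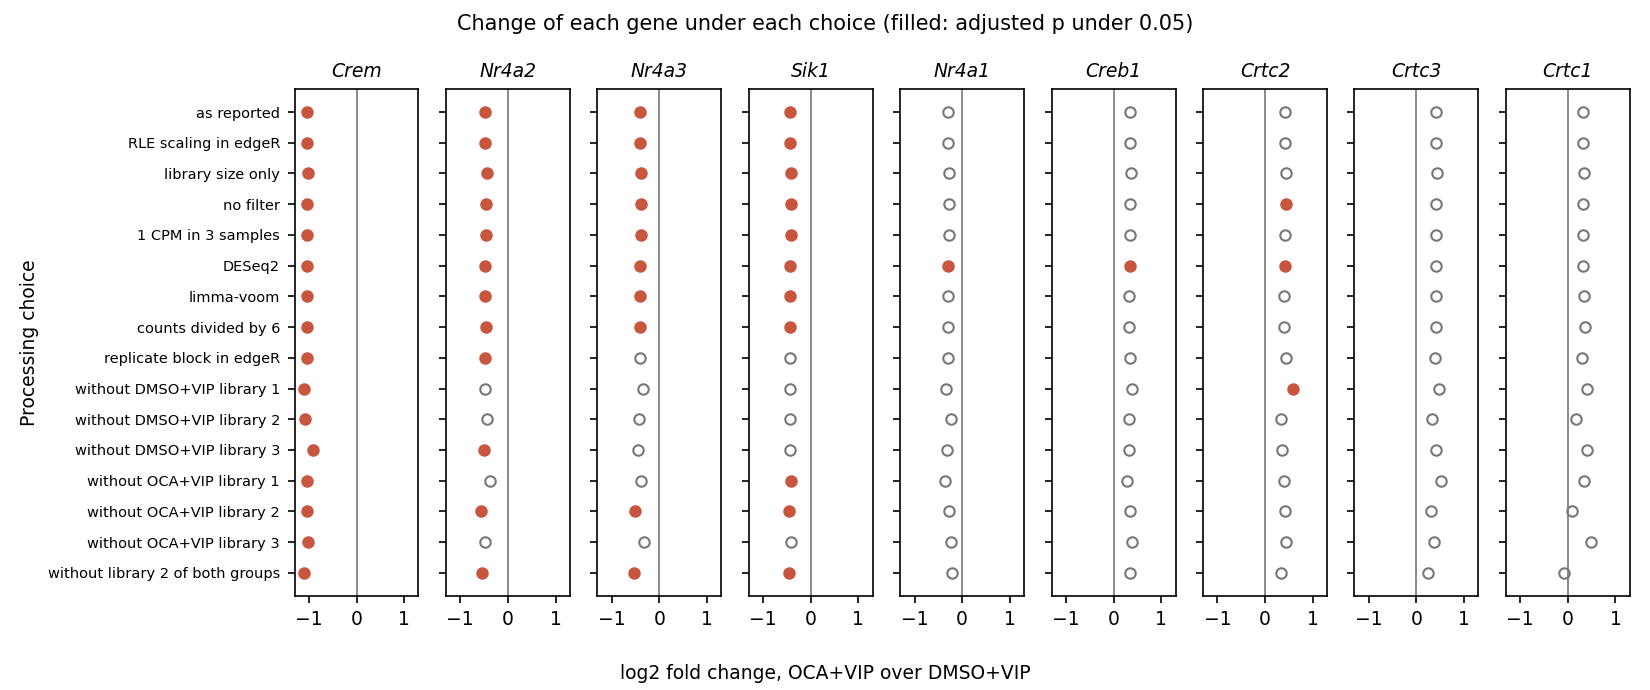
Log2 fold change of each tested gene under each processing choice, filled where the adjusted p is under 0.05. Crem is filled in every row, while Nr4a2, Nr4a3 and Sik1 lie left of 0 in every row and are open in several.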

How the data were processed

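The authors deposited 1 table of expected counts per RefSeq transcript in steps of 0.5, not adjusted for library size, with exon length and genomic copies, per the file headers. The submitters' processing notes name mm10, STAR, HOMER and DESeq2, with no role or version; use of strand is not given in the sources used here. Columns were assigned to groups by name; column numbers could not be tied to the letters in the titles.

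Rounded counts went into edgeR 4.0.16 (R 4.3.3) with TMM scaling and filterByExpr (minimum count 10, total 15). A two-sided quasi-likelihood F test was run over all tested genes, with Benjamini-Hochberg adjustment (threshold 0.05). The fit had 4 residual degrees of freedom. The test and its intervals add prior degrees of freedom that edgeR estimates from all tested genes. The edgeR procedure was tested on simulated data with changes planted in 200 genes. Those changes were larger than the ones of Nr4a2, Nr4a3 and Sik1, and the simulated counts did not come in steps. Calls of smaller changes on stepped counts were not tested. CPM are deposited counts scaled to the column total. Alternatives were RLE or library-size scaling, no filter, 1 CPM in 3 samples, DESeq2 1.42.0, limma-voom 3.58.1, counts divided by 6, a replicate block and leaving out each library. Leaving out library 2 of both groups was chosen after seeing the data.

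Members and lists were chosen with earlier results of these data known. The rule names, per list, the genes past the threshold, at most 5 per direction, or up to 3 of smallest p; and the 3 genes most correlated with each called member. No other gene in GENCODE vM21 shares exon bases with the models linked to the counted transcripts of the 10 members. For Crem and Creb1 these models hold 529 and 5009 exon bases, where 2023 and 8410 were counted. Counted bases outside the linked models were not checked. Promoters are from RefSeq (GRCm38.p6). Figures used matplotlib 3.10.9. The results of a few genes are not reported here.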

Additional observations from a re-analysis of the deposited data

How the results depend on the processing

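Direction was the same under every alternative run for all tested members but Crtc1, whose log2 fold change was -0.0715 without library 2 of both groups. The count of members called was 4 as reported, 7 with DESeq2 and 2 with a replicate block, and 1 to 4 when 1 library was left out. With DESeq2, Creb1 (0.34), Crtc2 (0.42) and Nr4a1 (-0.29) also passed, and Crtc2 passed without a filter (0.43). With the replicate block, Nr4a3 (-0.41), Sik1 (-0.43) and, among the pathway genes named, Pprc1 (0.41, edgeR adjusted p = 0.0721) did not pass. Same-numbered libraries deviated from their group means with correlations of -0.035, -0.05 and 0.03, so the numbers are not shown to pair the samples, and 2 of the 6 libraries correlated best with their own number. Leaving out 1 library gave log2 fold changes of 0.34 to 0.58 for Crtc2, -0.57 to -0.37 for Nr4a2, -0.51 to -0.31 for Nr4a3 and -0.45 to -0.42 for Sik1. Over all genes, 1328 were called as reported, 2245 with DESeq2, and 737 to 1478 when 1 library was left out. The cause of these differences was not tested. Calls of the 6 pathway lists stayed within 14 to 24 and those of CRE target genes within 9 to 13 under all alternatives. Ppargc1a, with 51 and 24 counts per group, could not be tested after the filter.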
